A study of Mus musculus with 16 samples.

Results

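The 9 genes described here make, move, sense and break down dopamine: Th, Ddc, Slc18a2, Slc6a3, Drd1, Drd2, Drd3, Maoa and Maob. They were chosen by symbol from the 24062 genes of a whole-brain RNA-seq count table. Of these, 8 were found under their symbol and Drd1 under its older symbol, Drd1a. Brains with the cerebellum attached came from 16 singly housed females of the inbred strain C57BL/6J at postnatal day 45, with 4 mice in each of 4 groups and 1 library per brain. Water-Water (WW) mice drank tap water only. Nicotine-Water (NW) mice had 200 µg/ml nicotine in their bottles for 22 h a day over 10 days. Water-Ethanol mice, marked by their initials in the figures, had water in place of nicotine and, on the last 4 days, 20% v/v ethanol by drinking in the dark, which limits access to a few hours of the dark phase (2 h, and 4 h on the last day, after which the brain was taken). Nicotine-Ethanol (NE) mice had both substances, but not at once, since nicotine bottles were taken away for the daily ethanol or water session. NW and NE mice thus had no nicotine in the 4 h before the brain was taken. On the last day, the paper reported higher ethanol intake and blood ethanol in NE than in Water-Ethanol mice. These 2 groups therefore differed in ethanol dose as well as in nicotine. Counted reads per mouse ranged from 27100352 to 32880979.

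Dopamine is made from tyrosine by tyrosine hydroxylase (Th), the rate-limiting step, and then by aromatic L-amino acid decarboxylase (Ddc), packed into vesicles by the vesicular monoamine transporter VMAT2 (Slc18a2) and taken back up at the terminal by the dopamine transporter (Slc6a3). It acts on receptors of the D1 class, which raise cAMP, and of the D2 class, which lower it, and it is degraded by the monoamine oxidases A and B. The neurons that make it lie mainly in the midbrain, with a further population in the olfactory bulb, and release from the midbrain neurons into the striatum is a shared action of nicotine and ethanol. Ddc and Slc18a2 are also used by serotonin and noradrenaline neurons, and Th by noradrenaline neurons. In RNA of a whole brain, a change in the number of cells of a type and a change in RNA per cell cannot be told apart, and a change in 1 region is diluted by all others.

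Some brains stood apart in their makeup. A marker score (the mean log2 level of the genes in a list, each centred over the mice) for cerebellum was -1.56 in WW 21 and -1.01 in NW 10 and at least 0.0527 in the other 14 mice. Summed levels of the 8 cerebellum markers were 307 and 477 CPM (counts scaled to the library size, with TMM factors) in those 2 mice. The olfactory bulb score ran from -0.71 in Water-Ethanol 15 to 0.34 in WW 18. Nasal epithelium markers were highest in WW 20, with a score of 3.81, and pituitary markers in NW 10, with 2.96. Values without these mice are given where they change a result.

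The promoters of Th, Ddc and Slc18a2 are shown because these genes carry the 3 patterns described below: Th had its highest correlation with olfactory bulb markers, which did not pass correction, Ddc and Slc18a2 varied together from mouse to mouse, and Slc18a2 had the lowest unadjusted p-value of the 9 genes in NW. The letters are the 150 bases before the transcription start, 5′ to 3′ in the direction of the gene, from RefSeq on GRCm38.p6, and capitals mark 3 searched motifs. Of the 9 genes, 8 had a promoter in the RefSeq table, and Ddc and Drd1 had 2 each.
Th, chr7:142899996-142900145, minus strand: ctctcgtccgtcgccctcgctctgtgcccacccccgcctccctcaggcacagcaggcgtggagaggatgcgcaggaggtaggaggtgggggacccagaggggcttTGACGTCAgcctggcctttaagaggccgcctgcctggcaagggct
Ddc, upstream start, chr11:11898145-11898294, minus strand: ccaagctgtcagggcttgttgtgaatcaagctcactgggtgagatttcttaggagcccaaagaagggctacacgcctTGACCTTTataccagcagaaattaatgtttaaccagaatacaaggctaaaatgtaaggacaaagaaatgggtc
Ddc, downstream start, chr11:11890409-11890558, minus strand: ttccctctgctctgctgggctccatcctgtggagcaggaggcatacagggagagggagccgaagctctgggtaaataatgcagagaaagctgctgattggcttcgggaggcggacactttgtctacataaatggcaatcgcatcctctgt
Slc18a2, chr19:59260728-59260877, plus strand: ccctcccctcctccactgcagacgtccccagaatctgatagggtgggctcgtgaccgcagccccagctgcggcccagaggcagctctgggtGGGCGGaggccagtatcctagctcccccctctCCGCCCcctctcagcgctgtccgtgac

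The motifs were searched on both strands in the 250 bases before each start. The cAMP response element, TGACGTCA, which reads the same on both strands, lay 45 to 38 bases before the start of Th and in no other promoter found for the 9 genes. It was found in 1.55% of the 32851 promoters in the table. The NR4A monomer element, AAAGGTCA, was found on the reverse strand of the upstream Ddc promoter, 73 to 66 bases before the start, and in 1.34% of all promoters. GC boxes, GGGCGG, stood at 2 places before Slc18a2 and also before Th, Slc6a3, Drd2, Maoa and the downstream start of Drd1, and in 32.7% of all promoters. The GC content of these 250 bases was 64.4% for Th and 64.0% for Slc18a2, and 40.8% and 56.0% for the 2 starts of Ddc, beside a median of 52.4% over all promoters. These matches are a description of the sequence and were not tied to any expression value.

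In the count table, on GRCm38, Th lies on chromosome 7 from 142892776 to 142899966 in 13 exons, and Ddc on chromosome 11 from 11814101 to 11898144 in 16. Slc18a2 lies on chromosome 19 from 59260878 to 59296012, and Slc6a3 on chromosome 13 from 73536747 to 73578672. Drd1 is also on chromosome 13, from 54051183 to 54055658, Drd2 on chromosome 9 from 49340662 to 49407214, and Drd3 on chromosome 16 from 43762242 to 43822839. Maoa and Maob are neighbours on chromosome X, from 16619698 to 16687812 and from 16709281 to 16817366, on opposite strands with 21468 bases between their ends. No exon of the 9 genes overlapped an exon of another listed gene (0 bases).

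Levels in FPKM, which are scaled to transcript length and library size, spanned 29.9-fold between the highest and the lowest of the 9 genes. The monoamine oxidases and the D1 and D2 receptors had the highest means: Maob averaged 13.97 ± 0.727 FPKM (SD, n = 16), Maoa 12.6 ± 0.632, Drd2 12.5 ± 1.13 and Drd1 12.4 ± 0.968. Maob was above Maoa in 16 of 16 mice, with a ratio between 1.01 and 1.22, while Maoa was above Drd2 in 7 and Drd2 above Drd1 in 9 of the 16, so those 3 did not differ in order beyond their spread. The synthesis enzymes came next, Ddc at 10.2 ± 0.841 and Th at 9.96 ± 1.35 FPKM, and Ddc exceeded Th in 7 of 16 mice. Below them lay the transporters, Slc18a2 at 6.25 ± 0.536 and Slc6a3 at 4.21 ± 0.416 FPKM, and Slc18a2 was above Slc6a3 in every mouse. Drd3, a D2-class receptor found mainly in the ventral striatum and islands of Calleja, was lowest, at 0.467 ± 0.118 FPKM. It rested on 12 to 25 reads per mouse, and Drd2 exceeded it between 16.8 and 40.4 times.

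**Figure D1:**
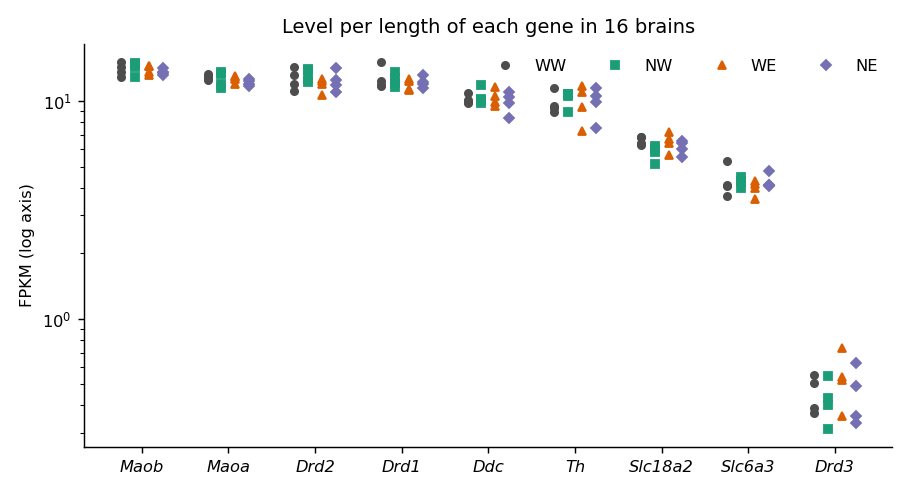
FPKM on a log axis for each of the 9 genes, ordered by mean, with 1 symbol per mouse and the 4 groups set side by side. The other 8 genes lie between 3.54 and 15.1 FPKM in every mouse, above Drd3, which lies between 0.313 and 0.735.

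The spread between mice of a group was widest, relative to read counting, for Th. The coefficient of variation within groups, pooled over the 4 groups, was 14.8% for Th, where counting alone gives 4.62%. For the other genes of the dopamine neuron it was 8.89% for Ddc, 8.43% for Slc18a2 and 10.2% for Slc6a3, against 4.37% to 5% from counting. Drd1 and Drd2 varied by 8.41% and 9.06%, and the oxidases least, Maoa by 4.53% and Maob by 5.45%. For Drd3 the value of 25.3% was close to the 23.7% that counting gives.

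The first question was whether any of these genes differed between the drinking groups. All 9 genes passed the filter on low counts in all 7 comparisons, and none changed in any of them past the threshold of 0.05 on the p-values of the edgeR quasi-likelihood fit, adjusted by Benjamini-Hochberg over all genes tested. In NW against WW, 0 of 9 genes were called, where 0% of 15344 genes were, and 1 of 9 had an unadjusted p under 0.05, where 8.44% of all genes did. In Water-Ethanol against WW the counts were 0 called, beside 0.457% of 15323 genes, and 0 with an unadjusted p under 0.05, beside 19.3%. In NE against WW they were 0 called, beside 0.313% of 15313 genes, and 1 unadjusted, beside 17.5%. NE against Water-Ethanol gave 0 called, beside 0% of 15319 genes, and 0 unadjusted, beside 5.8%. A fit of all 16 mice gave the ethanol effect (both ethanol groups against both others) with 0 of 9 called, beside 4.5% of 15592 genes, and 0 unadjusted, beside 22.9%. The nicotine effect gave 0 called, beside 0%, and 1 unadjusted, beside 10.3%. For the interaction of both, 0 were called, beside 0%, and 0 unadjusted, beside 6.76%. DESeq2 on the counts and limma on log2(FPKM + 1) also called 0 of the 9 genes in each comparison. The share of all genes that these methods called is not given here, so these counts have no background beside them.

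The intervals show the size of change that the main fits allow for each gene, without adjustment over genes and without marker scores. With both the cerebellum and olfactory bulb scores in the fit, described below, the estimates of Th in Water-Ethanol and NE lay above these ranges. Over the 8 genes other than Drd3, the 95% intervals of the fold change reached from 0.799 to 1.19 in NW, from 0.794 to 1.22 in Water-Ethanol and from 0.812 to 1.19 in NE, each relative to WW. In NE relative to Water-Ethanol they reached from 0.807 to 1.21. For the ethanol effect, where 8 mice stood against 8, they reached from 0.86 to 1.13, and for the nicotine effect from 0.837 to 1.16. The interval of Drd3 was wider, from 0.722 to 1.49 in NW and from 0.622 to 1.40 in NE. The log2 fold changes of the 9 genes had a median of 0.03 in NW (all genes tested, 0.0096), -0.04 in Water-Ethanol (0.0015) and -0.04 in NE (0.0039). All 9 estimates of the ethanol effect were below 0, with a median of -0.04 beside 0.0021 over all genes. Without WW 21 and NW 10, 4 of them (Th, Slc18a2, Slc6a3 and Drd3) were above 0, and the same 4 were above 0 without WW 20 and WW 21. These comparisons share the WW mice, so their values are not independent of each other.

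**Figure D2:**
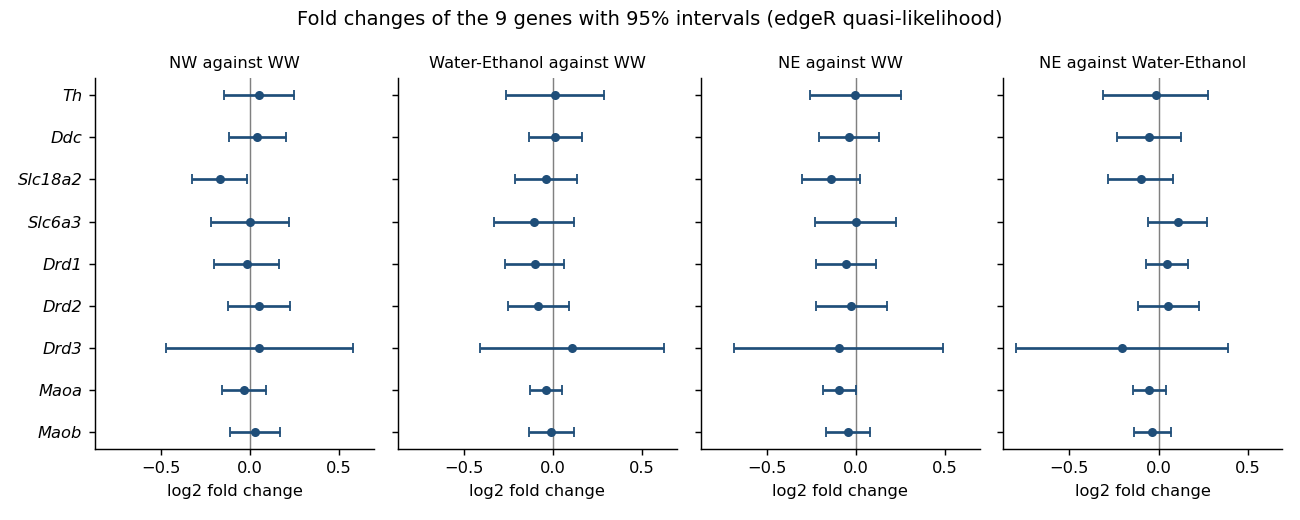
Log2 fold change of each gene (x axis) in the 4 comparisons between groups, with bars for the 95% interval of edgeR's quasi-likelihood fit. All intervals cross 0 except those of Slc18a2 in NW and Maoa in NE, whose adjusted p-values were 0.546 and 0.285, and Drd3 has the widest bars.

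Of the synthesis enzymes, Th had nearly the same mean in all 4 groups and the widest spread within them. Its CPM in WW mice 18 to 21 were 15.9, 15.2, 14.6 and 18.7, and in NW mice 7, 8, 10 and 11 they were 17.3, 17.6, 17.2 and 14.6. In Water-Ethanol mice 13 to 16, Th stood at 18.02, 19.2, 12.0 and 15.5 CPM, and in NE mice 2 to 5 at 18.6, 16.03, 12.3 and 17.2 CPM. The lowest mice were Water-Ethanol 15 and NE 4, and the 4 groups overlapped widely. Group means were 16.1 ± 1.82 CPM in WW, 16.7 ± 1.40 among the NW mice, 16.2 ± 3.20 with Water-Ethanol and 16.03 ± 2.72 in NE (SD over the 4 mice of a group). The log2 fold changes of Th were 0.05 (SE 0.090) in NW, 0.01 (SE 0.13) in Water-Ethanol and -0.0017 (SE 0.12) in NE (exact permutation tests, two-sided, p = 0.629, 0.914 and 0.943).

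For Ddc, the second enzyme of the path, the groups overlapped as well. It stood at 17.5, 17.3, 17.8 and 19.1 CPM in WW 18 to 21 and at 17.4, 17.8, 17.4 and 21 CPM in NW 7, 8, 10 and 11. In Water-Ethanol 13 to 16 it stood at 16.3, 20.1, 18.5 and 17.2 CPM, and in NE 2 to 5 at 18.1, 17.3, 19.3 and 14.8 CPM. NW 11 was the highest mouse for Ddc and the lowest of NW for Th. Ddc had log2 fold changes of 0.04 (SE 0.073) in NW, 0.01 (SE 0.069) in Water-Ethanol and -0.04 (SE 0.077) in NE, with exact permutation p-values from 0.714 to 0.943.

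Among the transporters, Slc18a2 (VMAT2) had lower values in most NW mice, but did not pass the test. In WW 18 to 21 it stood at 16.5, 16.4, 15.8 and 18.2 CPM, and in NW 7, 8, 10 and 11 at 13.8, 14.98, 14.3 and 16.2 CPM. Of the 4 NW mice, 3 (mice 7, 8 and 10) lay below every WW mouse, and NW 11 lay above WW 20. In Water-Ethanol 13 to 16 it stood at 13.7, 17.0, 17.6 and 16.7 CPM, and in NE 2 to 5 at 16.3, 14.9, 16.03 and 13.3 CPM. Water-Ethanol 13 and NE 5 lay just below the lowest NW mouse. The mean was 16.7 ± 1.02 CPM in WW and 14.8 ± 1.02 in NW (SD, n = 4 each). The log2 fold change in NW was -0.17 (SE 0.070, 95% interval -0.32 to -0.02), with an unadjusted p of 0.0308 and an adjusted p of 0.546 in edgeR's quasi-likelihood test. An exact two-sided permutation test gave p = 0.0571, where 0.0286 is the smallest that 4 against 4 mice allow.

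The groups did not overlap for 0 of the 9 genes in CPM in NW against WW, beside 5.95% of all genes tested. For Slc18a2 they did not overlap with the deposited FPKM in place of CPM, as for 6.53% of all genes, without WW 20 (7.92% of all genes) or without NW 11 (11.2%). In NE its log2 fold change against WW was -0.14 (SE 0.074, adjusted p = 0.365) and against Water-Ethanol -0.10 (SE 0.085, adjusted p = 0.875, edgeR). Over all 16 mice, the nicotine effect on Slc18a2 was -0.14 (SE 0.058, 95% interval -0.26 to -0.01), with an unadjusted p of 0.0308 and an adjusted p of 0.435, and the interaction with ethanol was 0.07 (SE 0.12). Without WW 21 and NW 10, the mice with few cerebellum markers, the change in NW was -0.11 (unadjusted p = 0.183, edgeR). With the olfactory bulb score in the fit it was -0.28 and with both region scores -0.27 (adjusted p = 0.453 and 0.282, edgeR). That score was lower in NW than in WW by 0.29 (exact permutation test, p = 0.0286). Of its 8 markers, 3 had an unadjusted p under 0.05 in NW (edgeR), beside 8.44% of all genes, and 0 were called, beside 0%. None of these markers was at 0 in any mouse, and their summed levels were 220 to 259 CPM in WW and 213 to 252 in NW. Every NW mouse had a lower score than every WW mouse, so group and score cannot be told apart in the fit with the score. The part of this difference in the values of Slc18a2 was not tested beyond that fit.

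Slc6a3, the plasma membrane dopamine transporter and the gene among the 9 most specific to dopamine neurons, was not called in any comparison. It stood at 13.4, 12.0, 13.2 and 17.2 CPM in WW 18 to 21 and at 14.3, 13.3, 14.2 and 13.9 CPM in NW 7, 8, 10 and 11. In Water-Ethanol 13 to 16 it stood at 13.5, 13.8, 11.5 and 12.8 CPM, and in NE 2 to 5 at 13.2, 15.7, 13.2 and 13.6 CPM. WW 21 was above all other mice, and the groups overlapped. Its log2 fold changes were -0.0017 (SE 0.10) in NW, -0.11 (SE 0.10) in Water-Ethanol and -0.00048 (SE 0.10) in NE, with exact permutation p-values of 0.971, 0.543 and 0.971. WW 21 was the highest WW mouse for 6 of the 9 genes. Without WW 21 and NW 10 the change of Slc6a3 was 0.11 in NW, 0.0087 with Water-Ethanol and 0.11 in NE, with adjusted p-values of 0.63, 0.962 and 0.451 in edgeR.

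None of the receptors was called in any comparison. Drd1, the main receptor of direct-pathway striatal neurons, stood at 39.3, 41.6, 39.7 and 50.4 CPM in WW 18 to 21 and at 39.8, 39.4, 46.2 and 43.3 CPM in NW 7, 8, 10 and 11. In Water-Ethanol 13 to 16 it stood at 37.7, 37.9, 42.1 and 41.2 CPM, and in NE 2 to 5 at 38.3, 44.9, 40.2 and 41.2 CPM. WW 21 was again the highest of all mice and NW 10 the second, and these were the 2 brains with few cerebellum markers. The log2 fold changes were -0.02 (SE 0.084) in NW, -0.10 (SE 0.075) in Water-Ethanol and -0.05 (SE 0.077) in NE, and the exact permutation p-values ran from 0.4 to 0.857. Without those 2 mice the log2 fold changes of Drd1 were 0.03, -0.02 and 0.03 in the same order.

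Drd2, the receptor of indirect-pathway striatal neurons and the autoreceptor of dopamine neurons, stood at 16.03, 19.2, 17.9 and 20.6 CPM in WW 18 to 21. It stood at 19.9, 18.3, 17.9 and 20.1 CPM in NW 7, 8, 10 and 11, at 15.8, 17.1, 18.8 and 17.9 CPM in Water-Ethanol 13 to 16, and at 15.8, 20.8, 18.4 and 17.5 CPM in NE 2 to 5. No group was apart from another. Its log2 fold changes were 0.05 (SE 0.080), -0.08 (SE 0.080) and -0.03 (SE 0.091) in NW, Water-Ethanol and NE, with exact permutation p-values of 0.6, 0.4 and 0.8. Without WW 21 and NW 10 the estimates of Drd2 were 0.14, -0.02 and 0.03. Per length, the ratio of Drd1 to Drd2 was 0.989 ± 0.0684 over the 16 mice (SD) and ran from 0.864 to 1.12. Drd3 ranged from 0.411 CPM in NE 5 to 0.899 CPM in Water-Ethanol 16, and the groups overlapped. At 12 to 25 reads per mouse, differences of the size seen in the other genes were not detectable for Drd3.

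The oxidases varied least. Maoa, which prefers serotonin and noradrenaline and also degrades dopamine, stood at 50.6, 51.7, 52.8 and 49.3 CPM in WW 18 to 21 and at 45.9, 48.9, 47.3 and 49.6 CPM in NE 2 to 5. Of the 4 NE mice, 3 lay below every WW mouse, and NE 5 lay above WW 21. In NW 7, 8, 10 and 11 it stood at 52.9, 52.8, 46.2 and 47.4 CPM, and in Water-Ethanol 13 to 16 at 51.3, 50.1, 49.5 and 47.4 CPM. The log2 fold change in NE was -0.09 (SE 0.042), with an unadjusted p of 0.0487 and an adjusted p of 0.285 in edgeR's quasi-likelihood test, and the exact permutation p was 0.0571. In the same comparison, 3 of 6 astrocyte markers and 2 of 5 oligodendrocyte markers had an unadjusted p under 0.05 (edgeR), beside 17.5% of all genes. Of both lists 0 were called, beside 0.313%, and their median log2 fold changes were -0.09 and -0.10. Their scores were lower in NE by 0.105 and 0.125 (exact permutation tests, p = 0.114 and 0.171), with summed levels of 5010 to 5370 CPM in NE and 5290 to 5710 in WW for astrocytes, 6380 to 7290 and 6470 to 7700 for oligodendrocytes, and no marker at 0 in any mouse. Their part in the values of Maoa was not tested. Maob, which in the brain is found mainly in astrocytes and serotonin neurons, ranged from 28.3 CPM in WW 18 to 33.4 CPM in WW 19, so a single group held both ends of its range. Its largest log2 fold change against WW was -0.04 (SE 0.056), in NE.

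For these 4 comparisons between groups, 0 of 9 genes had CPM values without overlap in Water-Ethanol against WW, beside 10.8% of all genes tested. The count was 0 beside 10.7% in NE against WW and 0 beside 3.52% in NE against Water-Ethanol.

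**Figure D3:**
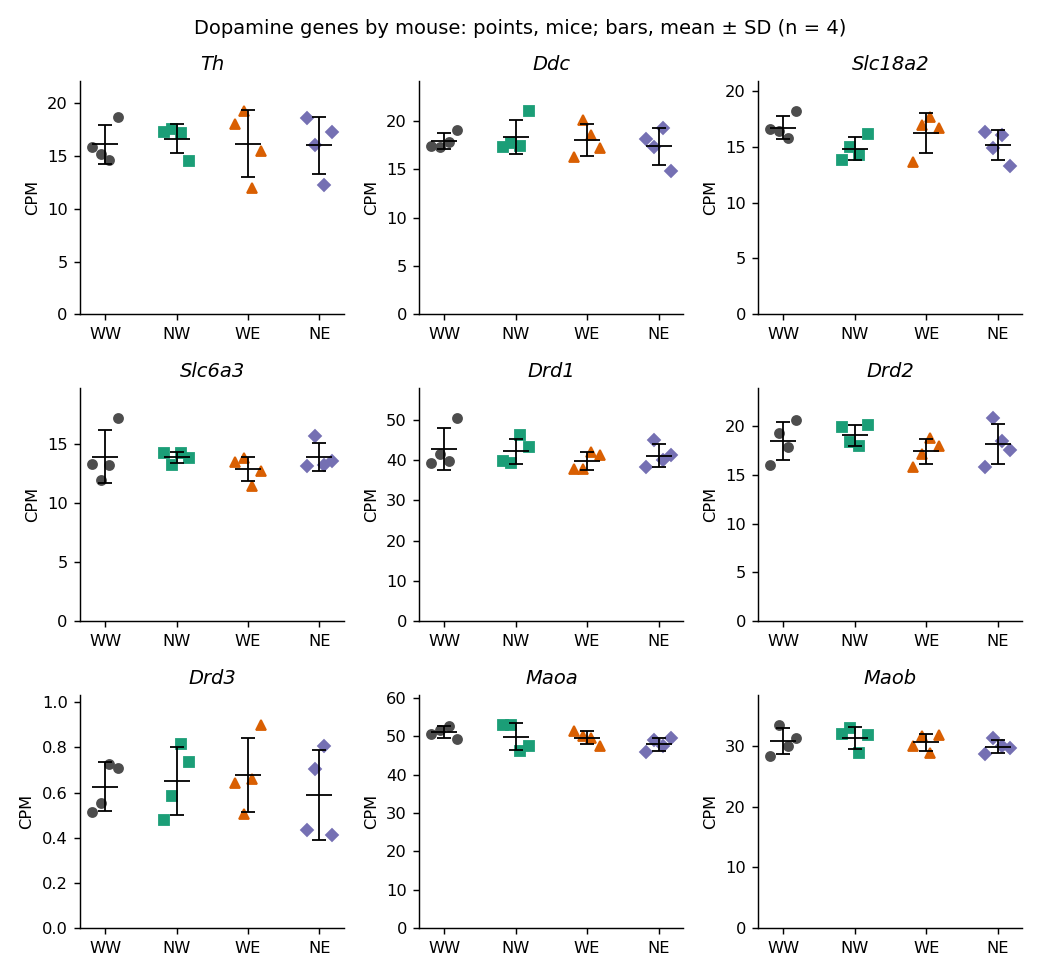
CPM of each of the 9 genes (y axes from 0) in the 4 groups, with 1 symbol per mouse and a bar for the mean ± SD of 4 mice. The groups overlap for all 9 genes, Th has its lowest mice in the ethanol groups at 12.0 and 12.3 CPM, and 3 NW mice lie below every WW mouse for Slc18a2.

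Th varied with the olfactory bulb marker score from mouse to mouse, in a relation that did not pass correction. With group means removed, log2 Th correlated with the olfactory bulb score with Pearson's r = 0.86 and Spearman's rho = 0.794 over 16 mice (100000 permutations within groups, p = 0.00358 and 0.00432). After correction for the 117 relations between the 9 genes and 13 marker lists this p became 0.209, and 0 of the 117 passed 0.05. The mice with the lowest scores, Water-Ethanol 15 (-0.71), NE 4 (-0.52) and NW 11 (-0.40), were the lowest mice of their groups in Th. Within WW the order was the opposite, since WW 21 had the lowest score of that group, 0.13, and the highest Th. Leaving out the 2 mice with the most extreme scores gave an r of 0.673, and without WW 21 and NW 10 it was 0.964. For Ddc and Slc18a2 the r with the same score was -0.469 and -0.584 (permutation p = 0.134 and 0.0707). For Drd2 it was -0.562 (rho = -0.706, permutation p = 0.0259 and 0.00252, adjusted p = 0.513). Dopamine neurons of the bulb express Th, as do those of the midbrain, and how Th reads divided between regions was not measured.

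With the bulb score as a covariate the SE of Th in NE against Water-Ethanol fell to 0.061 from 0.14, and its log2 fold change was -0.01 with the covariate and -0.02 without it. Against WW the estimates then rose. With both region scores in the fit, Th was 0.17 (SE 0.097) in NW, 0.31 (SE 0.075) in Water-Ethanol and 0.35 (SE 0.089) in NE. Their unadjusted p-values were 0.106, 0.00118 and 0.00217, and the adjusted ones 0.506, 0.0906 and 0.397 (edgeR), so none was called. With the bulb score alone they were 0.14, 0.19 and 0.21 (adjusted p = 0.787, 0.565 and 0.708, edgeR). The bulb score was at most 0.12 in NW and at least 0.13 in WW, so group and score cannot be told apart in NW. The cerebellum score was set mainly by WW 21 (-1.56), and in NW also by NW 10 (-1.01). These fits held 4 mice per group, so the estimates of Th with scores rest on few mice. In the plot of Th against the score, WW 18, 19 and 20 lie below the other mice with like scores.

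**Figure D4:**
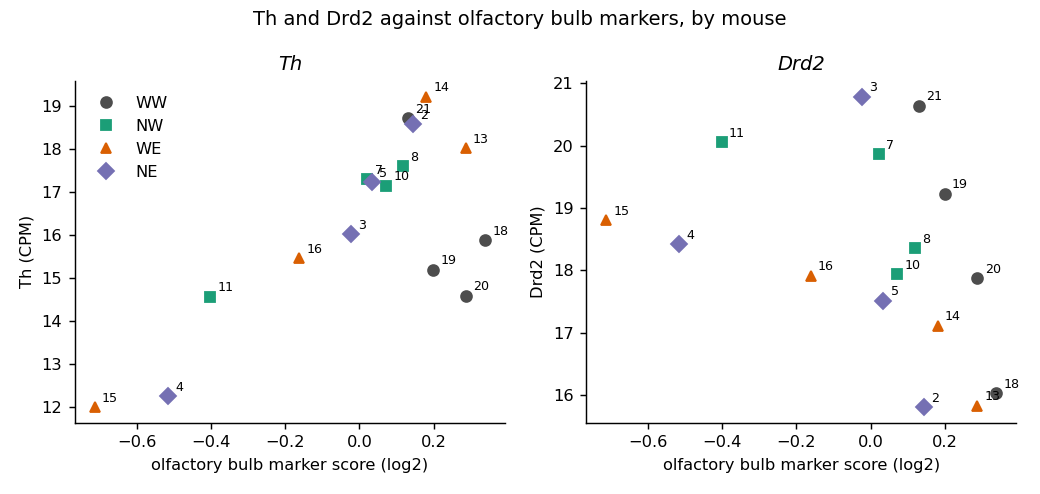
CPM of Th (left) and Drd2 (right) against the olfactory bulb marker score (mean centred log2 CPM of 8 markers), 1 symbol per mouse with its number. Th falls to 12.0 and 12.3 CPM in Water-Ethanol 15 and NE 4, the mice with scores of -0.71 and -0.52, while Drd2 shows no such fall.

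Other marker lists touched other genes. Maoa correlated with the astrocyte score (r = 0.717, rho = 0.612, permutation p = 0.00225 and 0.0221) and with the oligodendrocyte score (r = 0.643, rho = 0.732, p = 0.0248 and 0.00748), and the adjusted p-values were 0.209 and 0.513. Leaving out the 2 mice at the extremes of each score gave r of 0.569 and 0.663. Slc18a2 correlated with the score of fibroblasts and meninges (r = -0.554, rho = -0.571, permutation p = 0.0148 and 0.0289, adjusted p = 0.513). The latter score was lower in NE than in WW by 0.39 (exact permutation test, p = 0.0286). Of its 4 markers, 0 were called in NE, beside 0.313% of all genes, and 4 had an unadjusted p under 0.05 (edgeR), beside 17.5%. Their summed level was 84.8 to 95.3 CPM in NE and 93.0 to 180 in WW. Its part in the values of Slc18a2 and Maoa was not tested.

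Of the 36 pairs among the 9 genes, 1 passed correction: Ddc with Slc18a2. With group means removed, their log2 levels correlated with r = 0.833 and rho = 0.847 over 16 mice (permutation p = 0.00069 and 0.00043, adjusted p = 0.0248). The r was 0.769 with the 2 most extreme mice in Ddc left out, and 0.818 without WW 21 and NW 10. Th, which dopamine neurons use together with both, had r = -0.259 for Ddc and -0.285 for Slc18a2 (permutation p = 0.419 and 0.429). Th with Slc6a3 had r = 0.549 (rho = 0.494, permutation p = 0.043 and 0.0904, adjusted p = 0.261) and r = 0.456 without the 2 farthest mice. Drd1 with Drd2 had r = 0.674 and rho = 0.671 (permutation p = 0.0154 and 0.0165, adjusted p = 0.261). That r was 0.804 without the 2 farthest mice and 0.854 without WW 21 and NW 10. Slc18a2 with Maoa had r = -0.544 and rho = -0.624 (permutation p = 0.0332 and 0.0273, adjusted p = 0.261).

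The ratio of Slc18a2 to Ddc in CPM was looked at after the plot of the pair had been seen, and is given with no test. It was 0.948, 0.949, 0.885 and 0.950 in WW 18 to 21 and 0.796, 0.843, 0.820 and 0.770 in NW 7, 8, 10 and 11, so the NW mice all lay below the WW mice. It was 0.836, 0.844, 0.951 and 0.969 in Water-Ethanol 13 to 16 and 0.901, 0.862, 0.830 and 0.898 in NE 2 to 5, and both of these groups overlapped WW and NW. NW 11, whose Slc18a2 lay within the range of WW, had the highest Ddc of all mice and the lowest ratio. How often ratios of other gene pairs separate these groups was not measured. Of single genes, 5.95% had no overlap in CPM between NW and WW.

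**Figure D5:**
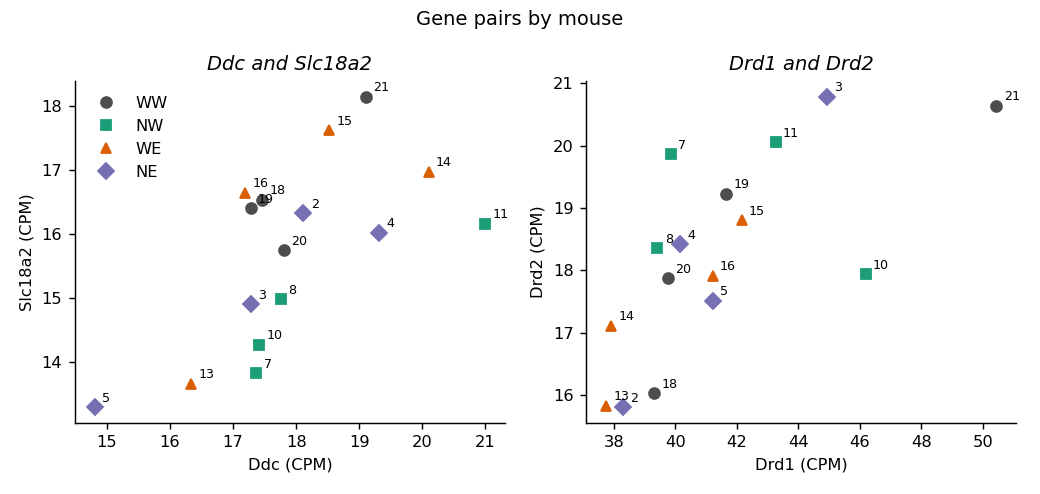
CPM of Slc18a2 against Ddc (left) and of Drd2 against Drd1 (right), 1 symbol per mouse with its number. Slc18a2 rises with Ddc (r = 0.833 with group means removed), the 4 NW mice lie along the lower edge of that plot, and NE 5 is lowest in both genes.

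The wider dopamine pathway was given by 46 genes in 7 lists: cofactor synthesis, breakdown and conversion, the other dopamine receptors, presynaptic and receptor partners, dopamine neuron identity, receptor signalling, and markers of D1 and D2 striatal neurons. Of these, 41 or 42 were tested in each comparison, and 0 were called in any of the 7 (edgeR's quasi-likelihood test). With an unadjusted p under 0.05 there were 2 of 41 in NW, 5 of 42 in Water-Ethanol, 1 of 41 in NE, 0 of 42 in NE against Water-Ethanol, 9 of 42 for the ethanol effect, 1 of 42 for the nicotine effect and 0 of 42 for the interaction. In each comparison the share was below that of all genes given above. The median log2 ethanol effect over the 42 genes was -0.02, beside 0.0021 over all genes. Akr1b3, Drd4, Foxa2 and Pitx3 had too few reads to be tested in any comparison, so 2 of the identity factors of midbrain dopamine neurons could not be followed.

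For the ethanol effect, 3 of 9 signalling genes had an unadjusted p under 0.05 in edgeR (Gng7, Pde1b and Arpp21). So did 2 of 8 striatal genes (Penk and Tac1), beside 22.9% of all genes tested. Penk, the enkephalin precursor of indirect-pathway neurons, had a log2 ethanol effect of -0.11 (SE 0.034, adjusted p = 0.069, edgeR). Gng7, a G-protein subunit of D1 signalling, stood at -0.13 (adjusted p = 0.111), Tac1, the substance P precursor of direct-pathway neurons, at -0.13 (adjusted p = 0.153), and Isl1 at -0.17 (adjusted p = 0.252). Rgs9, which speeds the end of G-protein signalling in striatal neurons, stood at 0.11 with an SE of 0.093. DESeq2 called Penk (adjusted p = 0.0303), and edgeR called it without NE 3 (adjusted p = 0.0227) and, together with Gng7 (adjusted p = 0.044), without WW 18 (adjusted p = 0.0434). Without WW 21, Rgs9 was called in Water-Ethanol at 0.38 (adjusted p = 0.0372, edgeR). Without WW 21 and NW 10, Nr4a2, a factor of dopamine neuron identity, was called for the ethanol effect at 0.17 (adjusted p = 0.029, edgeR). Penk and Gng7 were not called there. Neither brain had ethanol, and their striatal list scores were 0.19 and 0.10, beside 0.16 in NE 3. Signalling list scores were 0.14 and 0.16, beside 0.07 in NE 3. The part of these brains in the ethanol estimates was not tested beyond that fit. The share of all genes called in these alternative fits is not given here, so the calls have no background beside them.

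In cofactor synthesis, Gch1, which makes the cofactor that Th needs, had a log2 ethanol effect of -0.11 and a nicotine effect of -0.08. Gchfr stood at 0.11 for ethanol and -0.07 for nicotine, and Spr at -0.03 and 0.07 (adjusted p of 0.572 or more for all of these in edgeR). Dbh, which turns dopamine into noradrenaline, stood at 0.24 for ethanol (SE 0.093, adjusted p = 0.14), and at -0.09 for nicotine. Lmx1b and Lmx1a, of the identity list, stood at 0.70 and 0.29 for ethanol (adjusted p = 0.159 and 0.227), and Foxa1 and Lmx1b at -0.27 and -0.26 for nicotine. Lmx1b had few reads: it did not pass the filter on low counts in NW or NE against WW. In Water-Ethanol against WW its SE was 0.30. Caly and Sncg of the partner list lay between -0.07 and 0.04 for both effects, and Drd5, the other D1-class receptor, at -0.06 and -0.03. Pde1b and Ppp1r1b (DARPP-32) had nicotine effects of 0.07 each, Adora2a 0.09 and Pdyn 0.08 (adjusted p of 0.505 or more).

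A search for like genes left out predicted genes (Gm and Rik names), repeated rows and date-like symbols. The genes most like each of the 9 were taken as the 4 with the highest Pearson's r of log2 CPM over the 16 mice, with group means removed, among the remaining 13323 genes with a mean of at least 1 CPM. For Th they were Frmd7 (r = 0.906), Gng4 (0.904), Doc2g (0.902) and Apold1 (0.9), of which Doc2g is also a member of the olfactory bulb list. Tmem206 was the closest gene both to Slc18a2 (r = 0.904) and to Ddc (0.878). For Slc18a2 it was followed by Gjb6 (0.861), Arhgap24 (0.834) and Ddc (0.833), and for Ddc by Foxo4 (0.847), Ric8b (0.835) and Slc18a2 (0.833). Slc6a3 was most like Ly6h (0.939), Celf6, Rnps1 and C1qc (0.871), and without WW 21 and NW 10 the r of Celf6 was 0.72. Drd1 was most like Mn1 (0.948), Slc1a2, Nsmf and Dlg4 (0.913), and Drd2 like Kif5a (0.921), Myl12a, Golm1 and Csf1r (0.839). Drd3 was most like Dusp4 (0.874), Akt1s1, Slfn2 and Snx27 (0.85). Maoa was most like Bloc1s1 (0.909), Serpinb1a, Gng11 and Arsg (0.894), and Maob like Glrx3 (0.908), Mlc1, Grpel1 and Eif3k (0.885). These are the highest of the values for 13323 genes over 16 mice that share library effects, and are given as a description.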

How the data were processed

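RNA-seq of whole brain was measured in 16 mice, 4 per group, grouped by the labels. The authors trimmed reads with Trimmomatic 0.32, aligned them to GRCm38 (mm10) with TopHat2 and deposited raw read counts per gene and FPKM per gene from the Cufflinks tools, each mouse in its own column. Which program counted the reads is not given in the sources used here. The labels and the paper differ on whether the libraries kept strand, so a gene and an antisense partner may share reads. The authors used Cuffdiff, which cannot be rerun on these tables.

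The main test here was edgeR 4.0.16 (R 4.3.3), quasi-likelihood, with TMM factors, the default filter on low counts (minimum count 10), Benjamini-Hochberg adjustment over all genes tested and a threshold of 0.05. Groups were compared in pairs in fits of the 2 groups, while 1 fit of all 16 mice gave the effect of each substance and the interaction. CPM were scaled with TMM factors over all mice. Single genes were also compared by exact two-sided permutation tests on CPM. Correlations used log2 CPM (prior count 0.5) with group means removed and permutation within groups. Their p-values were added to a design that planned a description only, and relations with cerebellum markers were taken within 14 mice. Alternatives were RLE factors, DESeq2 1.42.0, limma 3.58.1 on log2(FPKM + 1) or log2(FPKM + 0.1), other filters, a fit of all mice, marker scores as covariates and leaving out mice. The scripts for these tests were run on simulated data first. Promoter sequences are those of RefSeq. Exact tests were run in R, and correlations and their permutations with numpy 2.4.6, with ranks from scipy 1.17.1. Motif searches were run in Python 3.11.15 with pandas 2.3.3, and plots in matplotlib 3.10.9.

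All 9 genes are named, and of the pathway lists those called and the 2 with the largest ethanol and nicotine effects in each list. Some genes that this rule names are not reported here. The genes, lists and rules were chosen with earlier results of these data known. Olfactory bulb score alone as covariate, leaving out WW 21 and NW 10, and FPKM for overlap were added after the data were seen. The labels do not tie the mice to litters or batches. Total counts were 27100352 to 32880979 per mouse (median 29448284).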

Additional observations from a re-analysis of the deposited data

Results flagged for a closer look

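Among 36 sets of 4 mice (9 genes in 4 groups), 3 held a mouse far from the other 3 by Dixon's criterion, which chance alone passes in about 1 of 20. Th in NW 11 was 14.6 CPM, below the other NW mice, which lay between 17.2 and 17.6. Ddc in the same mouse was 21 CPM, above the others at 17.4 to 17.8. That mouse had the third lowest olfactory bulb score, -0.40. Slc6a3 in NE 3 was 15.7 CPM, where the other NE mice lay between 13.2 and 13.6. In the test of the interaction of nicotine and ethanol with edgeR, 0 of the 9 genes passed, and 0 had an unadjusted p under 0.05 (adjusted p from 0.906 to 0.996).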

How the results depend on the processing

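The share of all genes called in each alternative is not given here. None of the 9 genes was called under any alternative: 0 of 641 other values and 0 of 720 values with a mouse left out had an adjusted p under 0.05. The signs of the small fold changes were less firm, since 73 and 101 of these values, respectively, reversed. The causes were not tested. The change of Slc18a2 in NW kept its sign throughout, from -0.28 to -0.11, with adjusted p-values from 0.282 to 0.881 in these alternatives. The number of the 9 genes without overlap in NW against WW was 1 with FPKM in place of CPM, beside 6.53% of all genes, and 0 to 1 with a mouse left out, beside 7.66% to 11.9%. With a mouse left out it was 0 to 1 in NE against WW, beside 12.9% to 18% of all genes, and 0 to 1 in NE against Water-Ethanol, beside 5.35% to 9.17%. The pathway genes called in Water-Ethanol against WW were 0 to 1 with a mouse left out. The 1 was without WW 21, and leaving out WW 21 and NW 10 is the same fit in that comparison. For the ethanol effect they were 1 with DESeq2, 1 without WW 21 and NW 10 and 0 to 2 with a mouse left out. The main fits of these comparisons, which called 0 pathway genes, called 0.457% and 4.5% of all genes. These shares are not those of the alternatives. Drd3 is limited by its depth of 12 to 25 reads per mouse. With both region scores as covariates, reversed log2 fold changes were Ddc -0.11, Drd2 -0.056, Drd3 -0.061, Maoa 0.014 and Maob -0.015 in NW, Slc6a3 0.10 and Maob 0.019 in Water-Ethanol, Th 0.35, Slc6a3 0.14 and Drd1 0.0078 in NE, Th 0.13 and Slc6a3 0.033 in the ethanol effect. With the bulb score alone, reversed log2 fold changes were Ddc -0.11, Drd2 -0.069, Drd3 -0.10, Maoa 0.025 and Maob -0.0090 in NW, Ddc -0.0059 and Maob 0.0084 in Water-Ethanol, Th 0.21 in NE, Th 0.083 in the ethanol effect, Drd1 -0.0063 in the nicotine effect. With limma on log2(FPKM + 1), reversed log2 fold changes were Drd3 -0.031 in NW, Th -0.0071 in Water-Ethanol, Slc6a3 0.0033 in NE, Th 0.0046 in NE against Water-Ethanol, Slc18a2 0.024 and Drd3 0.052 in the ethanol effect, Drd2 -0.016 in the interaction. With limma on log2(FPKM + 0.1), reversed log2 fold changes were Slc6a3 0.0012 and Drd3 -0.086 in NW, Th -0.0093 in Water-Ethanol, Slc6a3 0.0057 in NE, Th 0.0056 in NE against Water-Ethanol, Slc18a2 0.028 and Drd3 0.12 in the ethanol effect, Drd2 -0.017 in the interaction. Without a filter on low counts, reversed log2 fold changes were Slc6a3 0.0025 in NW. Without WW 20 and WW 21, reversed log2 fold changes were Slc6a3 0.14 and Drd1 0.060 in NW, Slc6a3 0.029 in Water-Ethanol, Th 0.046, Ddc 0.0021, Slc6a3 0.13, Drd1 0.022, Drd2 0.035 and Drd3 0.13 in NE, Th 0.0030, Slc18a2 0.0049, Slc6a3 0.013 and Drd3 0.093 in the ethanol effect, Ddc 0.016 and Drd3 0.040 in the nicotine effect, Slc6a3 -0.026, Drd1 -0.0088 and Drd2 -0.054 in the interaction. Without WW 21 and NW 10, reversed log2 fold changes were Slc6a3 0.11 and Drd1 0.027 in NW, Slc18a2 0.0024, Slc6a3 0.0087 and Maob 0.00034 in Water-Ethanol, Th 0.077, Slc6a3 0.11, Drd1 0.032 and Drd2 0.029 in NE, Th 0.024, Slc18a2 0.0065, Slc6a3 0.0070 and Drd3 0.065 in the ethanol effect, Ddc 0.023 and Maob 0.022 in the nicotine effect, Slc6a3 -0.00043 and Drd2 -0.081 in the interaction.

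With 1 mouse left out at a time, these log2 fold changes changed sign. In NW, Ddc ran from -0.030 to 0.074, Slc6a3 from -0.064 to 0.12, Drd1 from -0.073 to 0.070, Drd2 from -0.0097 to 0.11, Drd3 from -0.068 to 0.17 and Maob from -0.0076 to 0.074. In Water-Ethanol, Th ran from -0.082 to 0.13, Ddc from -0.044 to 0.056, Slc18a2 from -0.082 to 0.033, Slc6a3 from -0.17 to 0.0087, Drd3 from -0.057 to 0.22 and Maob from -0.046 to 0.034. In NE, Th ran from -0.086 to 0.11, Ddc from -0.10 to 0.027, Slc6a3 from -0.066 to 0.11, Drd1 from -0.10 to 0.032, Drd2 from -0.10 to 0.033, Drd3 from -0.29 to 0.036 and Maob from -0.080 to 0.0012. In NE against Water-Ethanol, Th ran from -0.14 to 0.094, Ddc from -0.11 to 0.014 and Drd2 from -0.018 to 0.11. In the ethanol effect, Th ran from -0.069 to 0.037, Slc18a2 from -0.026 to 0.031, Slc6a3 from -0.088 to 0.0027 and Drd3 from -0.12 to 0.044. In the nicotine effect, Th ran from -0.041 to 0.074, Ddc from -0.040 to 0.029, Drd1 from -0.0066 to 0.058, Drd3 from -0.17 to 0.0071 and Maob from -0.021 to 0.021. In the interaction, Th ran from -0.19 to 0.042, Slc18a2 from -0.0028 to 0.13, Slc6a3 from -0.0049 to 0.17, Drd1 from -0.018 to 0.11, Drd2 from -0.065 to 0.068 and Maoa from -0.054 to 0.015.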
